A study of Mus musculus with 9 samples.

Results

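Sox2, its overlapping transcript Sox2ot, Prom1 and its paralogue Prom2 are 4 genes around the 2 markers by which these skin cells were sorted. They were taken by the gene symbol of the platform annotation, which gives them 5 probe sets out of 45037 tested, and 4 of 18193 genes. Sox2, Sox2ot and Prom1 have 1 probe set each (1416967_at, 1460587_at and 1419700_a_at), and Prom2 has 1417047_at and 1417048_at. The 9 arrays hold RNA of cells sorted by flow cytometry from back skin at postnatal day 2. They come from 3 mice (numbers 2, 4 and 5), with 1 array for each mouse in each of 3 gates. About 50000 cells were collected per population. Gate R1 held GFP-CD133- cells, the dermal pool negative for both sort markers. Gate R2 held GFP-CD133+ cells, which the labels assign to papillae of zigzag hairs. Gate R3 held GFP+CD133+ cells, assigned to papillae of guard, awl and auchene hairs. The sources used here do not give the strain or the promoter that drives GFP, which is known as a reporter of Sox2 in this system.

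The dermal papilla is the mesenchymal cluster at the base of the hair follicle that signals to the overlying epithelium. SOX2 is a transcription factor of the SoxB1 group with an HMG box that binds DNA, known from embryonic stem cells, neural progenitors and the papillae of some hair types. Sox2ot is a long non-coding RNA gene transcribed in the same direction as Sox2, which lies within an intron of it. CD133 is the product of Prom1, a membrane protein that spans the membrane several times, binds cholesterol and sits in protrusions of the cell surface. Prominin-2, from Prom2, is its paralogue and is known from epithelia.

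The values are log2 expression values made by RMA, so a difference of 1 is a doubling. They carry no detection call, and a background guide was therefore set on each array at the 95th percentile of its 44 probe sets for olfactory receptors. It lay between 5.14 and 5.46. Array medians were 6.13 to 6.20, and arrays of the same gate correlated at 0.977 to 0.985 across probe sets, against 0.951 to 0.974 between gates. The papilla genes Corin, a protease, and Alpl, an alkaline phosphatase, averaged 5.93 and 7.0 in R1, 9.45 and 9.15 in R2, and 9.95 and 10.29 in R3. For beta-actin, the excess of the 3' over the 5' control probe set, which tracks RNA integrity, was 0.04 to 0.07 in R1, 0.11 to 0.22 in R2 and 0.12 to 0.20 in R3. It thus moved with each comparison against R1 below, and its part in the results was not tested. For Gapdh the same excess was larger and overlapped between gates, with gate means of 2.85, 2.68 and 2.84 for R1, R2 and R3.

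Sox2 was lowest in R1, intermediate in R2 and highest in R3, and its arrays did not overlap between any of the gates. In R1 the log2 levels were 4.45 in mouse 2, 4.31 in mouse 4 and 3.81 in mouse 5, each below the background guide of its array by 0.97 to 1.56. In R2 they were 7.65, 6.43 and 7.17, each above the guide by 1.18 to 2.19. In R3 they were 10.62, 10.57 and 10.80. The step from R2 to R3 follows the GFP gate and is given with no test: R2 held 8.36% of the R3 level, a mean difference of 3.58 on the log2 scale.

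R1 and R2 were both gated as GFP-negative. The level of GFP was not analysed here, and carry-over of cells between gates was not tested. Sox2 was 7.44-fold higher in R2 than in R1 (log2 difference 2.90, standard error 0.29, 95% confidence interval 2.24 to 3.55, n = 3 per gate, limma adjusted p = 0.00043). The rise was 3.20 in mouse 2, 2.12 in mouse 4 and 3.37 in mouse 5. In this comparison 8.53% of all probe sets were called at an adjusted p under 0.05 (4.78% higher and 3.74% lower in R2). The R1 level is below the guide, so the size of the fold rests on a dim signal. In these bulk samples, fewer cells that express a gene and less RNA per cell cannot be told apart.

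**Figure D1:**
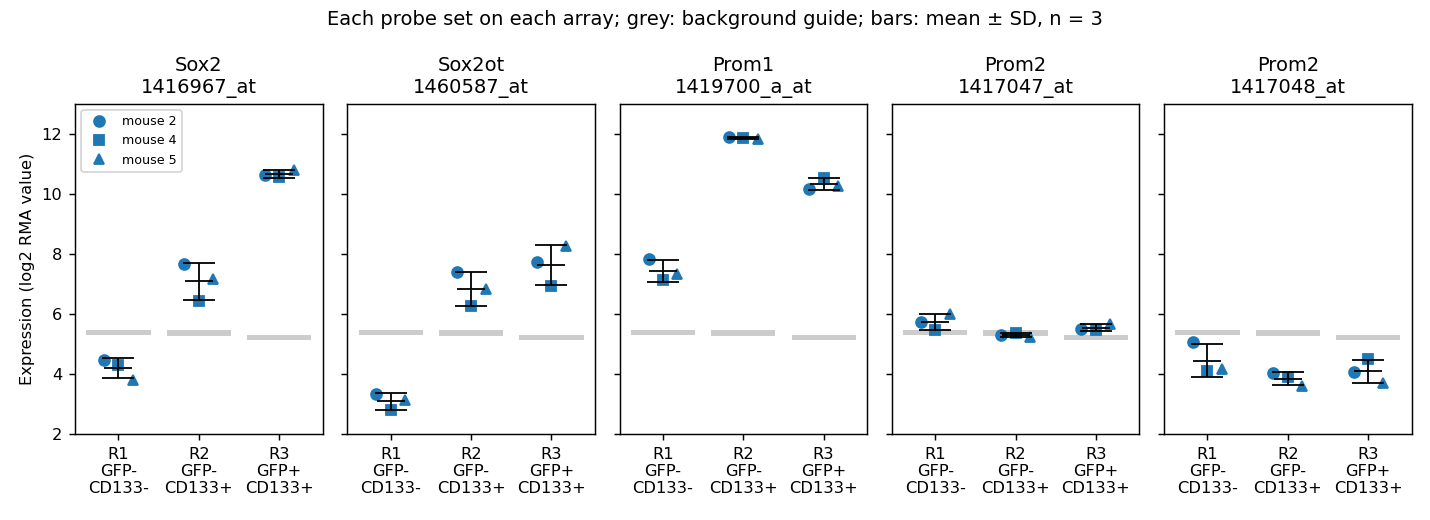
Log2 expression of every probe set of the 4 genes on each of the 9 arrays, by gate (symbols: mice; bars: mean ± SD, n = 3; grey: range of the background guide in that gate). Sox2 steps up from 4.19 to 7.08 to 10.66, Sox2ot reaches 6.82 in R2 and 7.63 in R3, Prom1 peaks in R2 at 11.85, and Prom2 stays near or below the guide.

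Sequence before the start of Sox2 is shown because the RNA level of this gene differed between the gates. Its transcription was not measured. RefSeq's GRCm38.p6 promoter table held Sox2, Prom1 and Prom2 (3 of the 4 genes). Capitals mark matches, on either strand, to GGGCGG (the GC box), CCAAT (the box named after it), TATAAA (the TATA box), ACAAAG (a core of SOX sites) and CTTTGA (a core of TCF and LEF sites); the reverse complement of ACAAAG differs from CTTTGA in its last letter. The Sox2 window is chr3:34649745-34649994 on the plus strand, and the Prom2 window, printed for the paralogue that stayed near background, is chr2:127541418-127541667 on the minus strand.
Sox2: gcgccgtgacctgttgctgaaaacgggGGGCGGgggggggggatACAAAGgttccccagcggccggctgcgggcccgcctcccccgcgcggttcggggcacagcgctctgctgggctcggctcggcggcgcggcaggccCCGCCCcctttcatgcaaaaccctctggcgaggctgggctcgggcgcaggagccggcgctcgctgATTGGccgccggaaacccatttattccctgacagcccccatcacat
Prom2: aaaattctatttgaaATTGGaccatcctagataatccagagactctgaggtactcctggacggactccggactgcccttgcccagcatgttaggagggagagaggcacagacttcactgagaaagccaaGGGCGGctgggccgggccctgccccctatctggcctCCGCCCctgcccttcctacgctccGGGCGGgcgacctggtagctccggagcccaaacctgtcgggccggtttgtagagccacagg
In the 250 bases before the Sox2 start, GGGCGG matched 223 and 111 bases before it, ACAAAG 206 bases and CCAAT 46 bases before it, with no match to TATAAA or CTTTGA. The Prom2 window had 3 matches to GGGCGG and 1 to CCAAT. Of 32851 such windows in the table, 32.7% held GGGCGG, 33.8% CCAAT, 12.4% TATAAA, 16.5% ACAAAG and 13.8% CTTTGA. The Sox2 window had a GC content of 72% against a median of 52.4% over all windows. A match is a description of the letters and not a bound site.

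Sox2ot lay below the background guide in R1 and above it in both papilla gates. In R1 its log2 levels were 3.34, 2.79 and 3.14 in mice 2, 4 and 5, all below the guide by 2.11 to 2.49. In R2 they were 7.39, 6.26 and 6.81, and in R3 7.73, 6.92 and 8.25, each above the guide by at least 1.00. No R1 array reached any R2 or R3 array, whereas the R2 and R3 arrays overlapped.

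Against R1, Sox2ot rose in both papilla gates. The log2 difference was 3.73 in R2 (standard error 0.36, 95% confidence interval 2.91 to 4.55, limma adjusted p = 0.000378) and 4.54 in R3 (standard error 0.36, interval 3.72 to 5.36, limma adjusted p = 8.55e-05), with 13.4% of all probe sets called in R3 against R1 (6.66% higher and 6.73% lower). Both comparisons share the R1 arrays. Since the R1 levels lie below the guide, the size of both differences rests on a dim signal.

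Between the papilla gates Sox2ot did not pass the test. Its level was 0.81 higher in R3 than in R2 on the log2 scale (standard error 0.36, 95% confidence interval -0.01 to 1.63, limma adjusted p = 0.343), where 3.07% of probe sets were called (1.45% higher and 1.62% lower in R3). It was higher in R3 in each mouse, by 0.33, 0.66 and 1.44. R2 thus held 57% of the R3 level of Sox2ot, with an interval of 32.2% to 101%. The interval leaves room for a difference of up to 3.10-fold and for none.

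By the gate means, most of the Sox2ot rise lay between R1 and R2, while Sox2 rose at both steps. The Sox2 step from R2 to R3 follows the GFP gate, and the test left that of Sox2ot open, so a difference between the transcripts is not established. The log2 difference Sox2 minus Sox2ot, whose changes between gates compare the changes of the probe sets and not their levels, was 1.11, 1.51 and 0.67 in R1, 0.25, 0.17 and 0.37 in R2, and 2.89, 3.65 and 2.56 in R3, in mice 2, 4 and 5. Its values did not overlap between any of the gates. From R1 to R2 it changed by -0.83, with values of -0.86, -1.34 and -0.30 in the 3 mice, so Sox2ot had the larger rise in each. The exact two-sided permutation test gave p = 0.1, the smallest that 3 arrays against 3 can give (0.1 after adjustment over 3 comparisons), and both R1 levels lie under the guide. From R2 to R3, a step that follows the GFP gate, Sox2 rose by 2.77 more than Sox2ot, and by 2.64, 3.47 and 2.19 within the mice. Within R2 the mice had the same order for both transcripts, highest in mouse 2 and lowest in mouse 4, and within R3 highest in mouse 5 and lowest in mouse 4.

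**Figure D2:**
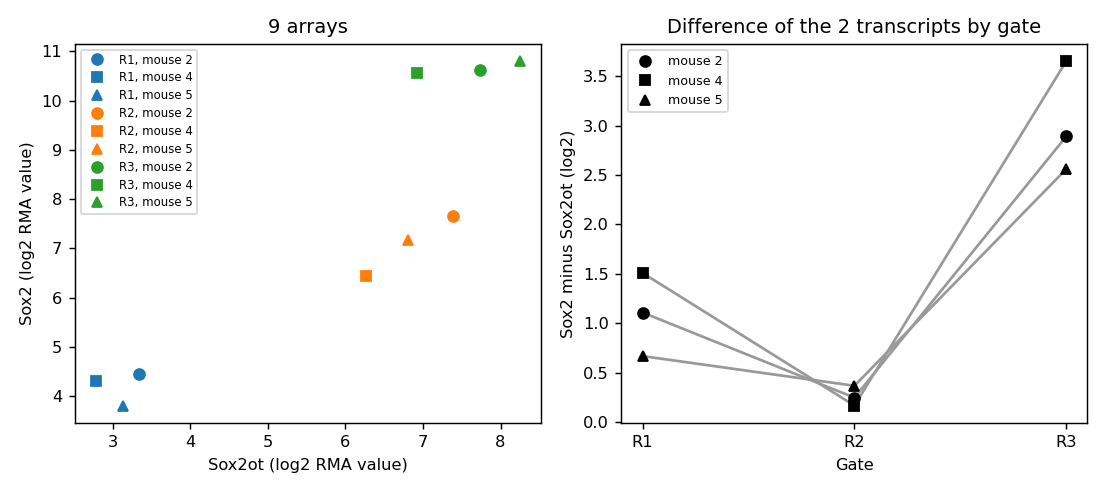
Left, log2 level of Sox2 against Sox2ot on the 9 arrays, coloured by gate. Right, Sox2 minus Sox2ot (log2) by gate, with a line for each mouse; only changes along a line are comparable. It is 0.17 to 0.37 in R2 and 2.56 to 3.65 in R3.

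Genes next to Sox2 on the chromosome did not share its size of change. None of the 6 nearest genes of the RefSeq gene table had a probe set, so the 3 nearest measured genes on each side were taken: Fxr1, Ccdc39 and Ttc14 on the lower side, and Atp11b, Dcun1d1 and Mccc1 on the upper. Fxr1, which encodes an RNA-binding protein, was 1.45-fold higher in R2 than in R1 (limma adjusted p = 0.0196). That call did not hold without R2 replicate 2 (adjusted p = 0.0657), R1 replicate 4 (0.0643), R2 replicate 4 (0.067) or R1 replicate 5 (0.0523). In R3 against R1, Fxr1 was also 1.45-fold higher (limma adjusted p = 0.0135). This second call held with any 1 array left out (up to 0.0494) and with the mouse as a block (0.0259). The log2 differences of the other 5 lay between 0.06 and 0.20 in R2 against R1, and those of all 6 between -0.08 and 0.44 in R3 against R2, and none of these passed the test.

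Prom1, the gene of CD133, was highest in R2 and lowest in R1, with no overlap between any of the gates. Its log2 levels were 11.89, 11.86 and 11.81 in R2, 10.16, 10.53 and 10.26 in R3, and 7.82, 7.12 and 7.34 in R1. The R1 arrays, gated as CD133-negative, stood above the guide by 1.84 to 2.37. The rise from R1 follows the CD133 gate and is given with no test: R1 held 4.65% of the R2 level.

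R2 and R3 were both gated as CD133-positive, and Prom1 was lower in R3 by a factor of 2.90 (log2 difference -1.54, standard error 0.19, 95% confidence interval -1.96 to -1.11, limma adjusted p = 0.00222). Within mice 2, 4 and 5 the log2 differences were -1.73, -1.33 and -1.55. Its SD over the R2 arrays was 0.04, against 0.19 in R3 and 0.36 in R1. The order of the gates for Prom1, with R2 above R3, is thus the reverse of that for Sox2, with R3 above R2. The probe set has the suffix _a_at, which marks probes shared by several transcripts of the same gene, so the transcripts of Prom1 cannot be told apart here. RefSeq gives Prom1 a pair of promoter windows. The outer window holds GGGCGG 62 bases and CCAAT 35 bases before its start, the latter within chr5:44101754-44101783 on the minus strand of GRCm38.p6, shown with the match in capitals for comparison with the Sox2 window; the inner window has no match to the 5 motifs.
Prom1: acgggctctcacCCAATcactcttgtggtg

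Prom2 stayed near background in all gates, so the paralogue did not mirror Prom1. Probe set 1417047_at read 5.72, 5.47 and 5.99 in R1, 5.28, 5.36 and 5.22 in R2, and 5.48, 5.47 and 5.66 in R3. Its R1 arrays exceeded the guide by 0.19 to 0.62, its R3 arrays by 0.31 to 0.36, and 1 of 3 R2 arrays did so. Probe set 1417048_at read 3.61 to 5.06 over the 9 arrays and was below the guide on each.

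Neither Prom2 probe set passed the test in any comparison. In R2 against R1, the log2 difference was -0.44 for 1417047_at (95% confidence interval -0.79 to -0.09, limma adjusted p = 0.123) and -0.59 for 1417048_at (interval -1.24 to 0.06, adjusted p = 0.273). Both were lower in R2 in 3 of 3 mice, at levels near or below the guide. In R3 against R2 the differences were 0.25 (interval -0.10 to 0.60, adjusted p = 0.513) and 0.23 (-0.41 to 0.88, adjusted p = 0.779). In R3 against R1 they were -0.19 (interval -0.54 to 0.16, adjusted p = 0.492) and -0.35 (interval -1.0 to 0.29, adjusted p = 0.494). The upper bounds leave room for a rise of 0.60 in R3 against R2 for the brighter probe set, while Prom1 differed by -1.54.

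**Figure D3:**
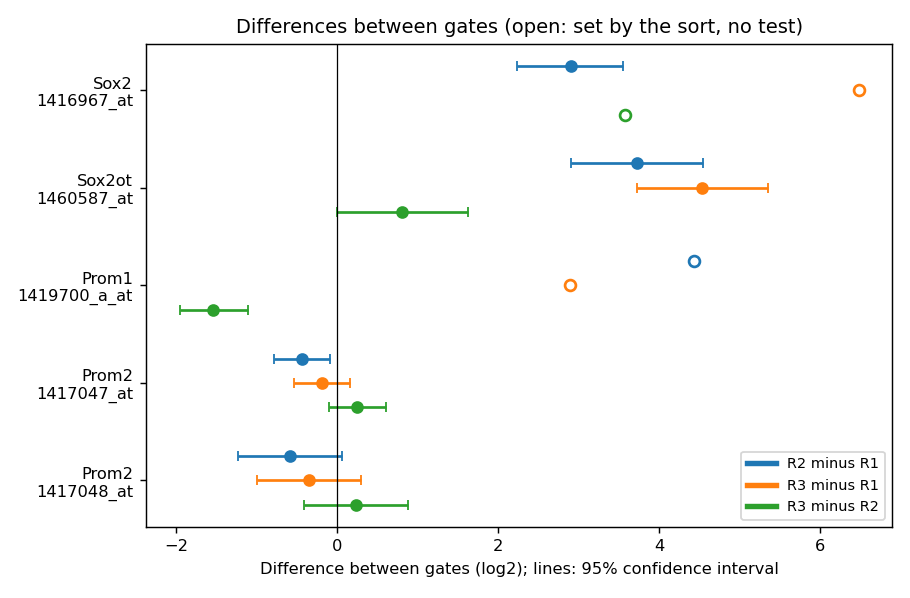
Log2 difference between gates for each probe set, with 95% confidence intervals for those tested; open symbols are differences set by the sort and have no interval. Sox2ot lies at 3.73 and 4.54 against R1 and at 0.81 between R3 and R2, Prom1 lies at -1.54 between R3 and R2, and all Prom2 differences are within 0.60 of 0.

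Of the 6 measured genes next to Prom1, Fgfbp1, which encodes a carrier protein of fibroblast growth factors, was 5.21-fold lower in R2 than in R1 (limma adjusted p = 5.18e-05) and 4.58-fold lower in R3 than in R1 (adjusted p = 3.53e-05). Tapt1 was 1.52-fold higher in R2 than in R1, the direction of Prom1 (limma adjusted p = 0.0429), a call lost with the mouse as a block (0.0735) and without any 1 of the R1 or R2 arrays or R3 replicate 4 (0.0511 to 0.128). Next to Prom2, the myelin proteolipid gene Mal was higher in R3 than in R2 by 31-fold (limma adjusted p = 0.000474), from 5.50 to 10.46 on the log2 scale. The other 5 measured neighbours of Prom2 passed the test in no comparison, as Prom2 itself did not. Over all 18 neighbours, 2 were called higher and 1 lower in R2 against R1, 1 higher in R3 against R2, and 3 higher and 1 lower in R3 against R1. Over all genes, 10.6% were called in R2 against R1 (5.58% higher and 5% lower), 3.87% in R3 against R2 (1.59% higher and 2.28% lower) and 16.1% in R3 against R1 (6.84% higher and 9.29% lower).

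No probe set of the SoxB paralogues of Sox2 was called higher in R2 than in R1. Those of Sox1, Sox3 and Sox14 lay near or under the guide, which limits what they can show. Sox21, a SoxB2 factor that acts as a repressor and is known from hair shaft cells, fell in both papilla gates. It read 9.42, 9.03 and 8.64 in R1, 7.10, 7.06 and 6.14 in R2, and 6.90, 6.47 and 6.73 in R3, in mice 2, 4 and 5. It was 4.81-fold lower in R2 than in R1 (log2 difference -2.27, standard error 0.29, limma adjusted p = 0.00147), and its other probe set gave a log2 difference of -1.92 (adjusted p = 0.00576). Sox14 and the brighter Sox3 probe set, 1450485_at, stayed at or near the guide, the other Sox3 probe set, 1435192_at, read 2.35 to 2.99 and lay well below it, and none passed the test.

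For Sox1, the closest relative of Sox2 with Sox3, the probe sets disagreed. The brighter probe set, 1422205_at, read 4.02 to 4.48 on all 9 arrays, below the guide. The other, 1438729_at, read 3.34, 3.54 and 3.32 in R1, 2.87, 4.00 and 3.82 in R2, and 5.09, 5.92 and 5.81 in R3. It was higher in R3 than in R2 by 2.04 (standard error 0.31, limma adjusted p = 0.00731), although only 2 of 3 R3 arrays passed the guide. Against R1 it was higher in R3 by 2.2 (limma adjusted p = 0.00169). Both calls held with any 1 array left out (adjusted p up to 0.0367 and 0.00941). This probe set was thus highest in R3, as Sox2 was, but was not called in R2 against R1 (0.16, limma adjusted p = 0.83).

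Of 19 factors known as partners of SOX2 or from pluripotent cells, 2 were called higher and 1 lower in R3 against R2, and 1 higher and 1 lower in R2 against R1 (2 lower without R1 replicate 4, with Sall4 at a limma adjusted p of 0.0413). Their median log2 difference was 0.09 and -0.02, against -0.01 and -0.02 over all genes. The shares called over all genes were 1.59% higher and 2.28% lower in R3 against R2. In R2 against R1 they were 5.58% and 5%. Among the 19 factors, the POU factor gene Pou3f1 had the lowest p in both comparisons. It read 7.94, 7.73 and 7.80 in R1, 6.38, 5.24 and 6.21 in R2 and 8.66, 8.31 and 8.31 in R3, so it dipped in R2: it was 3.68-fold lower in R2 than in R1 (limma adjusted p = 0.00294) and 5.58-fold higher in R3 (adjusted p = 0.00122). Mycn, a MYC family gene, was lower in R3 than in R2 by 2.24-fold (limma adjusted p = 0.0138), but not called without R2 replicate 4 (0.0559), R3 replicate 4 (0.0586) or R2 replicate 5 (0.053).

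Pou5f1, which encodes the pluripotency factor OCT4, was higher by 1.55-fold in R3 against R2 (limma adjusted p = 0.0384). Its levels of 5.02 to 5.93 lay close to the guide, and the call was lost without any 1 of the 9 arrays (adjusted p 0.0513 to 0.141) and with the mouse as a block (0.0658). Chd7, a chromatin remodeller, was 1.67-fold higher in R2 than in R1 (limma adjusted p = 0.0415), a call lost with the mouse as a block (0.0564) and held only without R1 replicate 4 or R3 replicate 5 among the arrays left out in turn, within a range of 0.0215 to 0.127. Pou3f2 was 2.76-fold higher in R3 against R2 without passing (limma adjusted p = 0.0838), and passed with the mouse as a block (0.0217).

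Of 14 measured genes of prominin partners and membrane protrusions, 2 were called lower in R3 against R2, and 2 higher and 2 lower in R2 against R1. Among all genes, 2.28% were called lower in R3 against R2, and 5.58% higher and 5% lower in R2 against R1. Podxl, which encodes the sialomucin podocalyxin of cell protrusions, shared with Prom1 its peak in R2. It read 6.78, 6.82 and 5.78 in R1, 9.41, 9.43 and 9.17 in R2, and 5.99, 6.77 and 6.55 in R3. It was 7.35-fold higher in R2 than in R1 (limma adjusted p = 0.000495) and 7.46-fold lower in R3 (adjusted p = 0.000881). Its means in R3 and R1 were 6.44 and 6.46, where those of Prom1 were 10.32 and 7.43. Podxl and Cav1 are also known from endothelium.

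Cav1, the gene of caveolin-1, fell from R2 to R3 with a log2 difference of -1.69 (limma adjusted p = 0.000182), with R3 arrays at 10.12 to 10.31 and R2 arrays at 11.76 to 12.03. Its R1 arrays read 12.22 to 12.42, so Cav1 did not share the peak of Prom1 and Podxl in R2. The difference of R2 from R1 did not pass (limma adjusted p = 0.0844). Ttyh2 was 2.05-fold lower in R2 than in R1 (limma adjusted p = 0.00382). Hdac6, a deacetylase known to bind prominin-1, was 2.03-fold higher there (adjusted p = 0.0208) but not without R2 replicate 2 (0.0653), R1 replicate 4 (0.0725), R2 replicate 4 (0.0805) or R1 replicate 5 (0.0619). Flot1, a lipid raft gene, was 1.81-fold lower in R2 than in R1 (limma adjusted p = 0.037) and lost the call without R1 replicate 2 or 4, any 1 of the R2 arrays, or R3 replicate 4 (adjusted p 0.0529 to 0.129). Ttyh1, a relative of the prominins in membrane topology, was 2.88-fold higher in R3 against R2 and missed the threshold (limma adjusted p = 0.0538), with calls without R1 replicate 2 (0.033) or R3 replicate 2 (0.0472).

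Of 11 measured surface markers of stem and progenitor cells, 3 were called higher and 2 lower in R3 against R2, and 3 higher and 4 lower in R2 against R1 (2 lower without R1 replicate 4, R2 replicate 4 or R2 replicate 5). The shares over all genes were 1.59% higher and 2.28% lower in R3 against R2, and 5.58% and 5% in R2 against R1. Abcg2, a drug efflux transporter gene, had levels in the order of Prom1. It read 8.38, 8.15 and 8.38 in R1, 9.38, 9.43 and 9.32 in R2, and 8.94, 8.94 and 8.95 in R3. It was 2.11-fold higher in R2 than in R1 (limma adjusted p = 0.000762) and also higher in R3 than in R1 (adjusted p = 0.00785). Its difference of -0.44 in R3 against R2 did not pass (limma adjusted p = 0.105). Cd34, a sialomucin gene of progenitors and vessels, fell instead at each step, 2.46-fold from R1 to R2 (limma adjusted p = 0.00286) and 3.26-fold from R2 to R3 (adjusted p = 0.00123). Lgr5, an R-spondin receptor gene of hair follicle stem cells, was 4.04-fold lower in R2 than in R1 (limma adjusted p = 0.000823), and the sialoglycoprotein gene Cd24a 1.93-fold higher (adjusted p = 0.00155). In R3 against R2 the integrin gene Itga6 was 2.02-fold higher (limma adjusted p = 0.00528), the adhesion gene Alcam 2.17-fold higher (adjusted p = 0.0098), and Thy1 1.75-fold lower (adjusted p = 0.00927).

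The genes most like each member were those with the highest Pearson r over the 9 arrays among 2137 genes whose gate means spanned at least 1 on the log2 scale. The arrays share 3 gates and 3 mice, and genes were not tested for this. That the named genes share the shape of a member follows from this choice. The profiles of Sox2 and Prom1 themselves follow the sort in part. Most like Sox2 were Cebpd (r = 0.992), Glis3 (0.992), Scube3 (0.988), Tle2 (0.987) and Sulf1 (0.987), which rose at both steps. Glis3, a zinc finger factor gene, averaged 6.83, 8.30 and 9.74 in R1, R2 and R3, and Scube3, a secreted signalling protein gene, 7.57, 9.81 and 11.90. Most like Sox2ot were Lonrf1 (0.984), Adgrb3 (0.984), Sipa1l2 (0.982), Rspo1 (0.981) and Eya2 (0.980). Rspo1, a secreted enhancer of Wnt signalling, averaged 9.53, 11.22 and 11.64, with most of its rise at the first step as for Sox2ot.

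Most like Prom1 were Trim47 (r = 0.991), Abcg2 (0.990), Sema3g (0.990), Adamts15 (0.990) and Mpped2 (0.988), all highest in R2 and intermediate in R3. Adamts15, a gene of a matrix metalloprotease, averaged 7.95, 10.61 and 9.75, and Sema3g, a class 3 semaphorin gene, 8.30, 10.37 and 9.56. For Prom2, whose arrays lie within 0.77 of each other, the highest values were 0.929 for Tslp, an epithelial cytokine gene, 0.928 for Sprr2d, 0.911 for Sprr2h, 0.904 for Lypd6b and 0.898 for Aqp9. Sprr2d and Sprr2h encode cornified envelope proteins of keratinocytes.

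Markers of several other cell types that could lie in the gates also differed between the gates, some with these genes and some against them. Of 9 measured Schwann and glial genes, a lineage in which Sox2 is also expressed, 8 were higher in R3 than in R2 (median log2 difference 2.26) and 3 lower in R2 than in R1 (median -0.65). The latter count was 1 without R1 replicate 2, R2 replicate 4 or R2 replicate 5, and 5 without R3 replicate 2. Among all genes, 1.59% were called higher in R3 against R2 and 5% lower in R2 against R1. The summed level of the glial genes on the linear scale was 1420 to 2010 in R1, 613 to 733 in R2 and 6670 to 7620 in R3. Myelin basic protein gene Mbp, for example, read 8.34, 6.87 and 8.18 in R1, 6.48, 6.23 and 5.06 in R2 and 11.84, 11.98 and 12.04 in R3. The summed glial level was lower in each R2 array than in each R1 array, and higher in each R3 array than in either. Such a sum gives most weight to the brightest genes. The part of glial cells in the steps of Sox2 and Sox2ot was not tested. In R2, 3 of the 9 glial genes were above the guide on all 3 arrays, namely Erbb3, Sox10 and Ngfr, and 3 were at or under it on all 3; in R1 these counts were 5 and 2, and in R3 9 and 0.

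Of 12 endothelial genes, all 12 were higher in R2 than in R1 and 11 lower in R3 than in R2, with summed levels of 1500 to 1910 in R1, 6230 to 7500 in R2 and 1610 to 1730 in R3. They moved with the excess of Prom1 in R2 over R3. The VEGF receptor gene Kdr read 9.46, 9.49 and 9.44 in R2 against 7.38 to 7.58 in R3, and Pecam1 9.46 to 9.61 against 6.03 to 7.33. In R3, Prom1 exceeded R1 by 2.34 to 3.40 within the mice, a rise that follows the CD133 gate. The endothelial sums of R1 and R3 overlapped. Of the 12 endothelial genes, 5 were lower and 1 higher in R3 than in R1 (median log2 difference -0.79). Among all genes, 9.29% were called lower and 6.84% higher in R3 against R1. The share called higher in R2 against R1 was 5.58%, and lower in R3 against R2 2.28%. The part of these lineages and of those below in the results was not tested.

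Of 8 Merkel cell genes, another lineage with Sox2 in skin, none was called by limma in R2 against R1 or R3 against R1, and 1 was lower in R3 than in R2, namely Isl1 (limma adjusted p = 0.0128), named after its value was seen. At an unadjusted p under 0.05, limma gave 2 of the 8 genes in each comparison. In R2 against R1, 1 was called higher with the mouse as a block or without R1 replicate 4, and 2 without R2 replicate 5 or with 1 probe set per gene. In R3 against R1, Krt8 was called with the mouse as a block (limma adjusted p = 0.0123) and Isl1 without R2 replicate 5 (0.0256). The call in R3 against R2 was lost when R3 replicate 2, R3 replicate 4 or R2 replicate 2 was left out. Merkel cell sums were 576 to 846 in R1, 837 to 1510 in R2 and 647 to 735 in R3, so the R1 and R2 ranges overlapped. Isl1 alone had a linear mean of 647 in R2. The defining Merkel cell factor gene Atoh1 stood below the guide on all 9 arrays (4.01 to 4.43). Melanocyte sums were 2290 to 3060 in R1, 819 to 1250 in R2 and 612 to 1120 in R3, and keratinocyte sums were 22600 to 31500, 3360 to 3830 and 2910 to 5350, with 12 of 12 keratinocyte genes lower in R2 than in R1. Of 8 melanocyte genes 6 were lower in R2 than in R1, and 3 without R2 replicate 4 or R2 replicate 5. Leukocyte sums were 5220 to 6820, 1270 to 2180 and 1620 to 2700. Of 15 papilla genes, 8 were higher in R2 than in R1 and 4 higher in R3 than in R2, and their sums were 15100 to 15800, 30100 to 31700 and 44500 to 49600. For all genes, the shares called were 5.58% higher and 5% lower in R2 against R1, and 1.59% and 2.28% in R3 against R2.

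**Figure D4:**
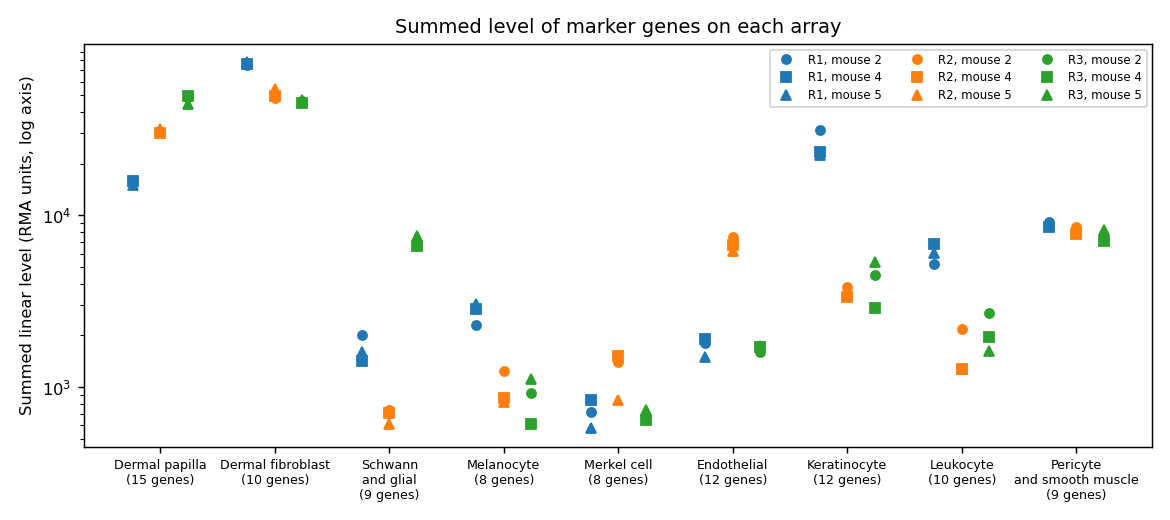
Summed linear level (2 to the power of the log2 value, log axis) of the measured marker genes of each cell type on each array, coloured by gate. Schwann and glial sums are highest in R3 (6670 to 7620), endothelial sums in R2 (6230 to 7500), and papilla sums rise from R1 to R2 to R3.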

How the data were processed

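Per the labels' protocols, total RNA of the sorted cells was amplified by WT-Ovation Pico, and 1-colour arrays were hybridised with the biotin-labelled product. The authors deposited log2 values for each probe set, made by RMA per the submitters' processing notes; its version is not given. Amplification and the quantile step of RMA can compress folds. Gene symbols came from the platform annotation (34945 tested probe sets with 1 symbol, 932 with several). Differences between gates were fitted with limma 3.58.1 in R 4.3.3 over all 9 arrays and 45037 probe sets, with 1 coefficient per gate, and Benjamini-Hochberg adjusted over all probe sets; calls are at an adjusted p under 0.05. The probe set of highest mean over the arrays stood for a gene. The arrays of a mouse come from the same animal; their deviations from the gate means correlated at -0.0729 to 0.193 (mean 0.0691), against a mean of -0.0344 between mice. The number of arrays limits the precision.

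On simulated data for R3 against R2 with 45037 probe sets, limma found 42% of the 2-fold, 94% of the 4-fold and 0% of the 1.5-fold changes. Few probe sets were changed there, and the noise was independent, with no mouse effect. It called 123 probe sets, against 1382 in the data, so its adjusted threshold was stricter and these shares do not give the power here. Genes named were the members, every SoxB paralogue, up to 4 genes per list with the lowest p, the 3 nearest measured genes on each side, and the 5 genes most like each member. The members and the 13 lists were chosen with earlier results of these data known. Alternatives were the mouse as a block, leaving out each array, the 6 arrays of a comparison, median centring, quantile normalization again, 1 probe set or the mean of probe sets per gene, a filter on dim probe sets, and a trend and robust variance. Python 3.11.15, pandas 2.3.3 and scipy 1.17.1 made the tables. Protein sequences were not used here.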

Additional observations from a re-analysis of the deposited data

How the results depend on the processing

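The tested differences of the members kept their direction and their side of the threshold under every alternative that gave a value. The Sox2 rise from R1 to R2 ranged from 2.61 to 3.22 (adjusted p 0.000123 to 0.00358), and the Prom1 difference of R3 minus R2 from -1.64 to -1.46 (0.000656 to 0.013). The Sox2ot rise ranged from 3.44 to 4.01 in R2 and from 4.23 to 4.90 in R3 against R1. Sox2ot between R3 and R2 ranged from 0.50 to 1.17 (adjusted p 0.147 to 0.664), and Prom2 was called in no comparison (0.0674 to 0.857). With the mouse as a fixed replicate block, the adjusted p was 0.00171 for Sox2 in R2 against R1, 0.0105 for Prom1 and 0.147 for Sox2ot in R3 against R2. The block changed no call of a member. It changed calls of listed genes, and only some of these are given above. Others include Kit and Nes in R2 against R1, Rspo3 and Twist2 in R3 against R2 and Ttyh1 in R3 against R1, which lost their calls. Fgf7 gained a call in R2 against R1 and in R3 against R2. The difference of Sox2 and Sox2ot ranged from -1.05 to -0.62 for R2 minus R1. Sox2ot and Prom2 lie below the median probe set, so the filter on dim probe sets gave no value for them. Of 702 counts of listed genes with an array left out, 82 moved by over 1.5 times, 11 of them upwards. Levels near the background guide limit the folds of Sox2 and Sox2ot against R1.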
